A study of Drosophila melanogaster with 16 samples.

Results

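The response of control larvae to a high-sugar diet was taken from 8 of the 16 libraries of the series, the 4 of control larvae on high sugar and the 4 of control larvae on low sugar. They were chosen by the titles of the samples, with no use of measured values. RNA came from whole Drosophila melanogaster larvae of a strain labelled only as control (CTRL), and the other 8 libraries came from larvae of the allele cwoB9. Larvae of all groups spent 24 h of their first instar at 25 °C on food with 10% yeast, the low-sugar diet (LSD). Early in the second instar they were transferred for 8 h, either to the same food prepared fresh or to the high-sugar diet (HSD), which adds 15% sucrose to 10% yeast. Both foods held 2% of a blue dye. The labels name no alleles or transgenes of the control strain and do not say how many larvae a sample holds or how the replicates arose. The spread behind each p-value is therefore that among these samples and may be technical.

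In flies, dietary sugar is sensed inside cells by the transcription factor Mondo with its partner Mlx, which act through further transcription factors such as sugarbabe (sug) and cabut (cbt). The gut cuts starch and disaccharides into monosaccharides, and the fat body turns them into trehalose, glycogen and triglyceride. Growth of the larva is set by insulin and TOR signalling, which drive the making of ribosomes, translation factors and DNA, while fasting signals favour the breakdown of stored fat and of the cell's own contents.

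With the smallest step between deposited values taken as a read, the 8 control libraries held 44.9 to 52.4 M reads in listed genes (M for mega). The labels give a mean depth of 30 M reads and 2 technical runs, and the difference was not resolved. Values are given in CPM, as the deposited table names them. All changes are log2 differences of high minus low sugar ± SE from limma, and adjusted p-values are two-sided and adjusted over the 9837 genes tested. Principal component 1 of the control libraries separated the diets and took up 80.2% of the variance. Component 2 took up 9.94% and set low-sugar library 1 and high-sugar library 4 apart. The same 2 libraries stood high in the Tweedle genes, cuticle proteins whose expression follows the moult. The mean log2(CPM + 0.5) of 15 Tweedle genes was 5.26 in low-sugar library 1 against 3.27 to 3.43 in the other 3, and 5.72 in high-sugar library 4 against 3.36 to 3.87. roX1, a noncoding RNA made in males, stood at 163, 192, 193 and 141 CPM in low-sugar libraries 1 to 4 and at 138, 190, 78.3 and 61.8 CPM in high-sugar libraries 1 to 4. Its difference did not pass (-0.68 ± 0.34, adjusted p = 0.0856) but did without high-sugar library 2 (-0.96). It also passed without low-sugar library 1 of cwoB9, which left the difference at -0.68 (adjusted p = 0.0486). roX2 fell by 0.84 ± 0.30 (adjusted p = 0.0206, not passed without high-sugar library 3 at -0.63 or 4 at -0.66). Across all genes, 6678 passed in the fit used throughout, 6638 with roX1 level as a covariate, 6671 with Tweedle level as a covariate, and 6248 without the library of highest Tweedle level in each group.

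**Figure D1:**
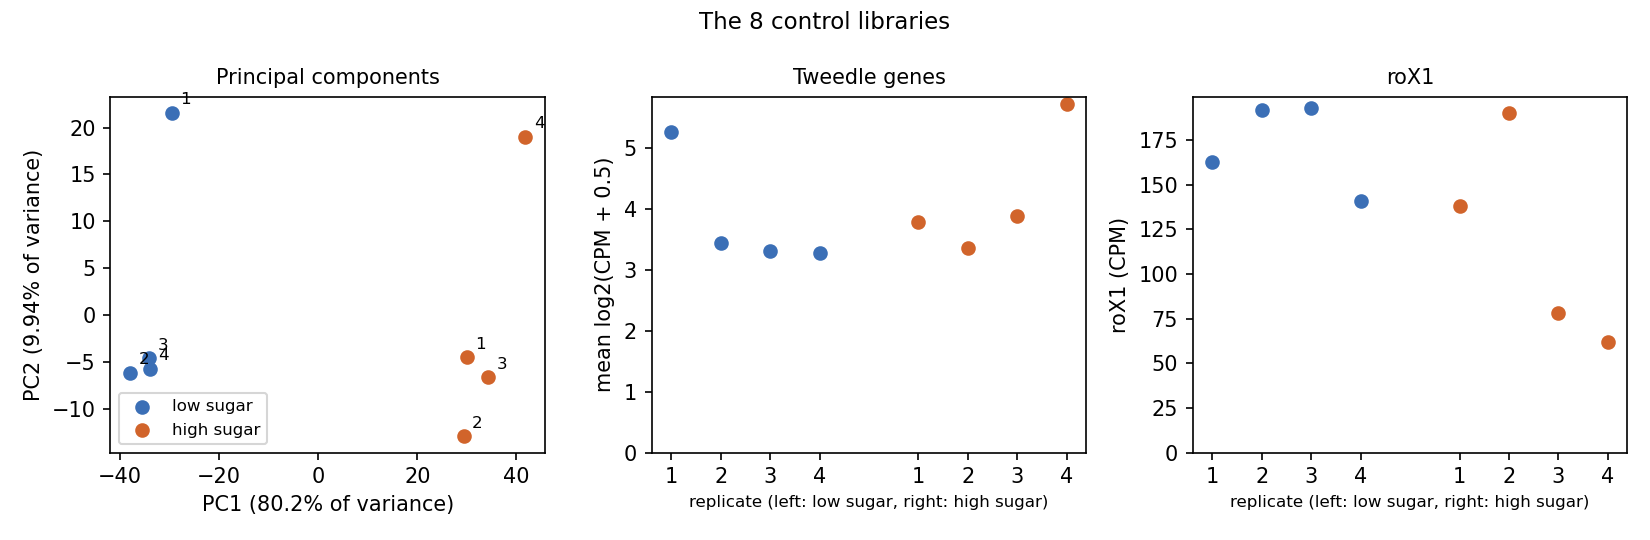
The 8 control libraries by principal component (left, numbers are replicates), by the mean log2(CPM + 0.5) of 15 Tweedle genes (middle) and by roX1 in CPM (right). Diets separate on PC1, low-sugar replicate 1 and high-sugar replicate 4 stand apart on PC2 and in Tweedle level, and high-sugar replicates 3 and 4 have the lowest roX1 levels.

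Of the 9837 genes tested, 6678 passed at an adjusted p under 0.05, which is 67.9%. Of these 3258 rose (33.1% of the tested genes) and 3420 fell (34.8%), while 3159 did not pass. The libraries of the diets did not overlap for 6311 genes (64.2%), of which 3079 were higher (31.3%) and 3232 lower (32.9%) on high sugar. Most changes were small. The median size of the change was 0.45 among genes that passed, and 508 genes rose at least 2-fold (5.16%) while 437 fell at least 2-fold (4.44%). A change of at least 4-fold was found in 102 genes that rose and 81 that fell, and of at least 8-fold in 27 of each. The median log2 difference of all tested genes was 0.00012, and a list of genes is read below against these shares, since most genes passed.

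**Figure D2:**
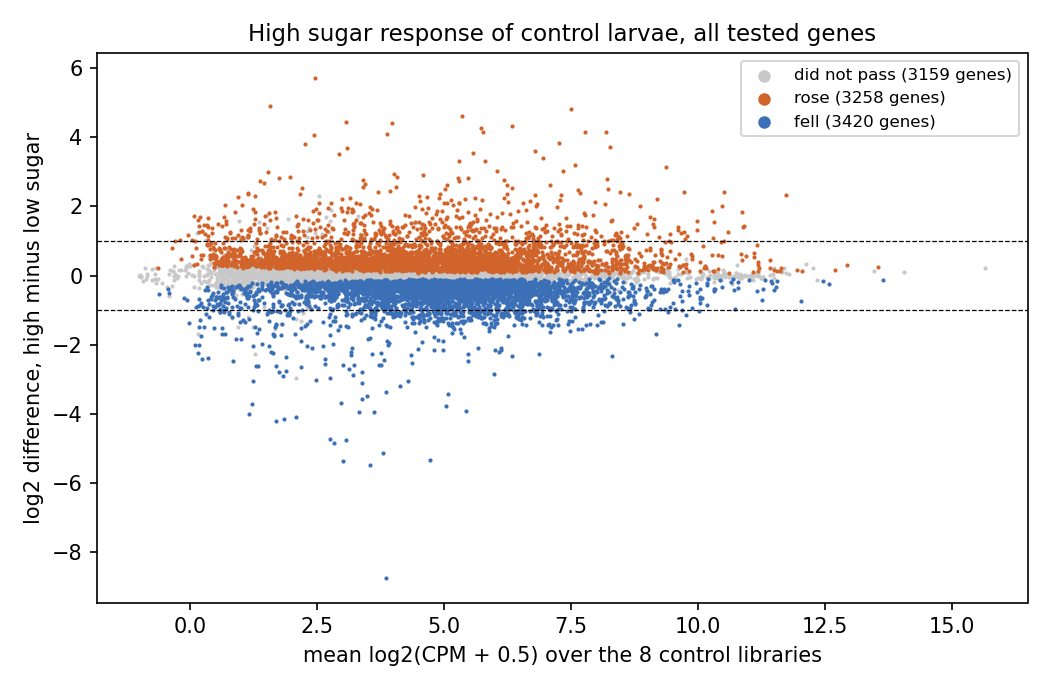
Each of the 9837 tested genes by its mean log2(CPM + 0.5) over the 8 control libraries and its log2 difference of high minus low sugar, with dashed lines at a 2-fold change. Orange marks the 3258 genes that rose, blue the 3420 that fell and grey the 3159 that did not pass, and most called genes lie inside the dashed lines.

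The largest rises included enzymes that handle sugar and genes without a known name. CG1774 (FBgn0039856, 3R 31592803 to 31594719, plus strand, BDGP6) had 38.7, 35.2, 30.1 and 31.6 CPM in the low-sugar libraries and 928, 904, 948 and 1058 CPM on high sugar, a rise of 4.81 ± 0.09 (adjusted p = 2.36e-14). Every high-sugar library lay above every low-sugar library, which the rule for naming the largest changes required. The noncoding RNA CR45190 (FBgn0266700, 3R 31588279 to 31590411, minus strand) lies close by and went from 0.502, 0.237, 0.131 and 0.221 CPM to 36.6, 35.9, 36.3 and 50.7 CPM, a rise of 5.71 ± 0.16 (adjusted p = 4.27e-13). It overlaps CG1635 on the other strand, which went from 42.7 to 45.8 CPM on low sugar to 52.4 to 57.1 on high sugar (0.30 ± 0.04). The kit marks strand but the counting is not stated to use it, so reads of the pair cannot be told apart with certainty.

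CAH2, a carbonic anhydrase (3L 12177601 to 12183347), went from 82.4, 55.9, 62.5 and 76.3 CPM to 1078, 1253, 1317 and 1231 CPM, a rise of 4.14 ± 0.11. CG32444, an enzyme of the aldose 1-epimerase family that interconverts the ring forms of sugars, went from between 16.1 and 18.7 CPM to between 343 and 377 CPM (4.31 ± 0.16). CG12766, of the aldo-keto reductases, rose by 4.11 ± 0.11, from between 2.46 and 3.26 CPM to between 56.0 and 69.4 CPM. The diets did not overlap for any of them, which the rule for naming these genes required. CG14205 rose by 4.14 ± 0.25 to between 835 and 1036 CPM, CG5246, of the trypsin-like proteases, by 4.27 ± 0.13, CG17738 by 4.62 ± 0.29 and CG9759 by 4.41 ± 0.39. The last, at 51.3, 55.7, 88.0 and 106 CPM on high sugar, varied most among these 4. The maltases Mal-A7 and Mal-A8 complete the list with Cpr65Ax2.

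Cpr65Ax2, a cuticle protein gene (3L 6150058 to 6150857), is the least certain of the 12. It stood at 0, 0.216, 0 and 0 CPM on low sugar and at 47.7, 40.4, 1.47 and 17.3 CPM on high sugar (4.89 ± 1.34, adjusted p = 0.00454, and 9.48 with voom weights on recovered reads). Its near-identical copy Cpr65Ax1 stood at 0.0201, 28.7, 33.4 and 37.3 CPM on low sugar and at 0.0202, 0.0397, 37.5 and 0 CPM on high sugar, and did not pass (-2.96 ± 1.95, adjusted p = 0.191; it passed without high-sugar library 3 at -4.51). Libraries that were high in either copy were near 0 in the other, so how the counting split reads between them cannot be told apart from a change of level.

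The largest falls were led by a run of neighbouring genes on the X chromosome. CG14422 (FBgn0029645, X 2943386 to 2944569) went from 550, 176, 455 and 178 CPM on low sugar to 0.304, 0.337, 0.145 and 0.0639 CPM on high sugar, a log2 difference of -8.73 ± 0.49 (adjusted p = 9.33e-10). Its neighbours CG14424, CG32793, CG3598, CG14420 and CG14423 fell as well, with differences of -4.74 ± 0.54, -5.32 ± 0.36, -5.48 ± 0.59, -5.35 ± 0.59 and -4.73 ± 0.64. All 6 lie between 2925884 and 2946589 on X, within the span of the cell adhesion gene kirre, of which 5 share its strand. kirre itself stood at 2.52 to 3.42 CPM on low sugar and 3.30 to 3.89 on high sugar and did not pass (0.19 ± 0.09, adjusted p = 0.0657). It passed with roX1 level as a covariate (0.25), with median-ratio scaling (0.20) and without low-sugar or high-sugar library 4 (0.23 each). Within the low-sugar group, libraries 1 and 3 were above libraries 2 and 4 in all 6 genes. On high sugar, libraries 1 and 2 were above 3 and 4 in all 6, the pair that also held more roX1, and all 6 passed with roX1 level as a covariate.

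Uro, urate oxidase of the Malpighian tubule, which breaks down uric acid (2L 7780085 to 7781415), went from 79.2, 78.0, 91.6 and 76.7 CPM to 1.46, 4.44, 1.76 and 0.851 CPM (-5.13 ± 0.32, adjusted p = 2.98e-09). CG8093, of the acid lipase family, went from 10.0, 12.5, 16.7 and 14.8 CPM to between 0.198 and 0.383 CPM (-4.20 ± 0.21). The genes CG13135, CG3546 and CG13983 differed by -4.84 ± 0.37, -4.14 ± 0.50 and -4.09 ± 0.44 and passed, with at most 1.83 CPM in any high-sugar library. IM3 (BomS3), a secreted immune peptide of the Bomanin family, varied widely on low sugar at 1.39, 9.75, 8.57 and 35.5 CPM and stood at 0, 0.0397, 0 and 0.192 CPM on high sugar (-4.01 ± 1.11, adjusted p = 0.00477, and -8.00 with voom weights).

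**Figure D3:**
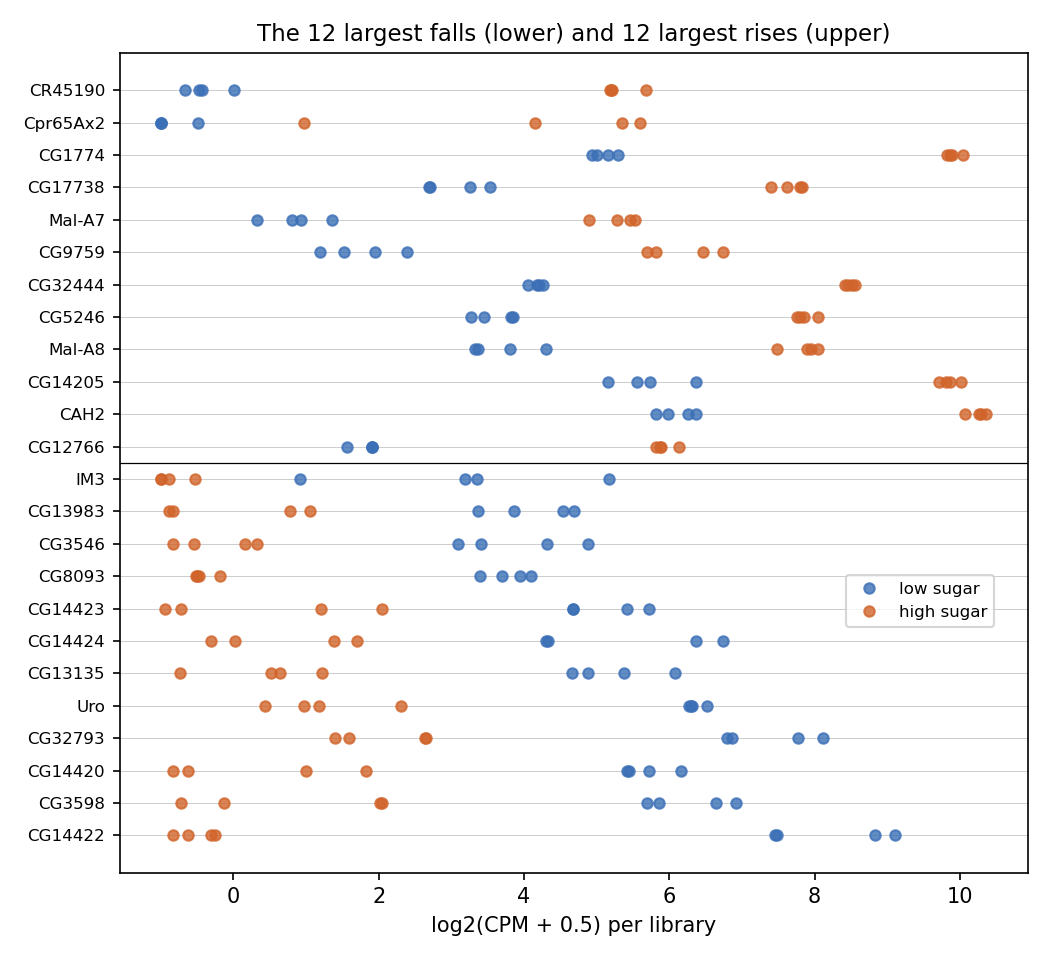
Levels of the 12 genes with the largest rises (upper) and the 12 with the largest falls (lower) in each control library, as log2(CPM + 0.5), with blue for low and orange for high sugar. The diets do not overlap in any row, which the rule for naming these genes required, and the high-sugar libraries of Cpr65Ax2 and the low-sugar libraries of IM3 spread most.

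Among transcription factors of the sugar response, the sensor and its targets rose, while SREBP and foxo did not pass. sug went from 15.9, 8.93, 13.3 and 10.6 CPM to 116, 113, 120 and 141 CPM, cbt from between 44.2 and 53.0 to between 122 and 138 CPM, and Mondo from between 126 and 149 to between 297 and 334 CPM. Their partner Mlx, listed as bigmax, rose less, by 0.38 ± 0.07 (adjusted p = 1.61e-04). The clock gene tim rose by 1.68 ± 0.10 from a low level of 1.10 to 1.73 CPM, and the repressor cwo by 0.27 ± 0.09 (adjusted p = 0.0137). Of 17 tested factors of this list 7 rose, 2 fell and 8 did not pass, with a median of 0.16. SREBP, the activator of lipid synthesis genes, stood at 310 to 325 CPM on low and 305 to 327 CPM on high sugar (-0.02 ± 0.03, adjusted p = 0.616), and passed as a fall of 0.15 with quantile normalization. foxo, the factor that insulin signalling inhibits, differed by -0.09 ± 0.06 (adjusted p = 0.157). The nuclear receptor Hnf4 fell by 0.18 ± 0.06 (adjusted p = 0.0237), a call that ended without low-sugar library 3 (-0.17, adjusted p = 0.0553) or high-sugar library 1 (-0.17, adjusted p = 0.0552).

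The enzymes of carbohydrate digestion moved in both directions. Amy-p, an alpha-amylase that cuts starch, went from 118, 130, 129 and 108 CPM on low sugar to 7.53, 8.19, 9.60 and 8.34 CPM on high sugar (-3.77 ± 0.08, adjusted p = 2.46e-14). Its near-identical copy Amy-d fell by 3.94 ± 0.10 and the related Amyrel by 3.18 ± 0.14. Reads of the amylase copies may be split between them. Maltases, which release glucose from maltose and sucrose, mostly rose. Mal-A7 went from 2.07, 1.25, 1.40 and 0.754 CPM to 38.4, 45.7, 29.2 and 43.4 CPM, and Mal-A8 from 19.2, 13.4, 9.86 and 9.49 CPM to 238, 247, 179 and 264 CPM. They rose by 4.43 ± 0.21 and 4.15 ± 0.23, and Mal-A1 and Mal-B1 rose by 2.42 ± 0.12 and 2.09 ± 0.13. Mal-A4 and the glucosidase tobi, known as a target of insulin and glucagon-like signals, fell by 1.15 ± 0.10 and 0.86 ± 0.13. Of 14 tested genes of starch and disaccharide digestion 7 rose, 6 fell and 1 did not pass, with a median of 0.04.

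Sugar transporters passed at about the share of all genes and moved in both directions. Slc45-1, a transporter of sucrose, went from 45.1, 44.5, 41.9 and 49.3 CPM to 165, 187, 206 and 221 CPM (2.09 ± 0.12). CG1213, of the sugar transporter family, rose by 2.83 ± 0.14 from between 13.8 and 19.4 CPM to between 93.4 and 168 CPM. The trehalose transporter Tret1-1 rose by 0.82 ± 0.09, and sut1 fell by 1.24 ± 0.09. Glut1, a glucose transporter prominent in glia, overlapped between the diets (-0.03 ± 0.06, adjusted p = 0.706). Of 9 tested transporters 4 rose, 2 fell and 3 did not pass, with a median of -0.03.

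Genes that build glycogen and trehalose rose, and so did the gene that breaks glycogen down. Gbs-70E, which brings a phosphatase to glycogen, went from 18.8, 15.1, 16.7 and 18.5 CPM to 151, 175, 203 and 177 CPM (3.31 ± 0.11, adjusted p = 5.32e-12). The branching enzyme AGBE rose by 1.76 ± 0.06, UGP, which makes UDP-glucose, by 0.87 ± 0.04, and the synthases of glycogen and trehalose, GlyS and Tps1, by 0.58 ± 0.05 and 0.86 ± 0.07. Glycogen phosphorylase, GlyP, went from 965, 949, 1034 and 998 CPM to 2337, 2578, 2321 and 2307 CPM (1.27 ± 0.07). Trehalase (Treh) overlapped between the diets (-0.09 ± 0.06, adjusted p = 0.178), and Sodh-1, a sorbitol dehydrogenase, fell by 0.96 ± 0.07. Over the 13 tested genes that store or convert sugars as trehalose, glycogen or polyols, 8 rose, 3 fell and 2 missed the threshold, and the median was 0.58.

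Genes of triglyceride storage rose in part, while most lipases and enzymes of fatty acid oxidation fell. fu12 (Agpat2), which adds a fatty acid on the way to triglyceride, went from 47.3, 48.2, 41.6 and 45.2 CPM to 163, 161, 174 and 167 CPM (1.86 ± 0.08). The lipid droplet proteins Jabba and Lsd-1 rose by 1.41 ± 0.11 and 0.88 ± 0.08, and Lpin, a phosphatidate phosphatase, by 0.63 ± 0.06. Of 14 tested genes of triglyceride synthesis and storage 7 rose, 3 fell and 4 did not pass, with a median of 0.17. Of the enzymes that lengthen fatty acids, CG18609, CG8534 and Baldspot rose by 2.63 ± 0.12, 1.32 ± 0.12 and 1.03 ± 0.06, and bond fell by 0.93 ± 0.11. In that list of 16, 7 rose, 3 fell and 6 did not pass, with a median of 0.07.

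Of 15 tested lipases 2 rose, 8 fell and 5 did not pass, with a median of -0.87. CG6283, of the pancreatic lipase family, went from 155, 200, 154 and 168 CPM to 21.2, 28.2, 20.6 and 23.3 CPM (-2.83 ± 0.12, adjusted p = 4.78e-11). CG6277 of the same family fell by 2.62 ± 0.13 and Lip3, known as a gene induced by fasting, by 1.67 ± 0.22. bmm, the triglyceride lipase of lipid droplets, overlapped at 12.5 to 18.1 CPM on low and 10.4 to 14.1 CPM on high sugar (-0.34 ± 0.20, adjusted p = 0.147), and passed in a fit of only the 8 control libraries (adjusted p = 0.0367).

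Of 19 tested genes of fatty acid oxidation 3 rose, 12 fell and 4 did not pass, with a median of -0.28. The acyl-CoA dehydrogenase CG12262 (Mcad) went from 172, 157, 130 and 121 CPM to 32.7, 32.5, 32.5 and 34.5 CPM (-2.10 ± 0.12). CG3902, another acyl-CoA dehydrogenase, fell by 1.05 ± 0.06, and the peroxisomal oxidases CG5009 and Acox57D-p by 0.93 ± 0.10 and 0.66 ± 0.07. whd, the carnitine palmitoyltransferase that lets fatty acids into mitochondria, was among the 3 that rose (0.45 ± 0.13, adjusted p = 0.00585), at 43.2 to 63.0 CPM on high sugar against 33.6 to 44.3. Of 15 genes of peroxisome assembly 3 rose, 9 fell and 3 did not pass (5 fell with quantile normalization), with Pex3 lower by 0.44 ± 0.04. Among lipoproteins, Mtp, which loads lipid onto them, went from 231, 249, 234 and 216 CPM to 78.6, 88.7, 84.8 and 93.1 CPM (-1.43 ± 0.07), and the receptor LpR1 rose by 0.50 ± 0.08. The carrier apolipophorin, listed as Rfabg, fell by 0.23 ± 0.09 with overlapping libraries (adjusted p = 0.0297). It did not pass without low-sugar library 2 or 3 or high-sugar library 1 or 2 (-0.21, -0.19, -0.20 and -0.21). Of 10 tested genes of lipoproteins and lipocalins 4 rose, 4 fell and 2 did not pass. Lsp1beta, a storage protein, had at most 2.13 CPM, so its fall of 1.47 ± 0.19 depends on the pseudocount (-2.42 with 0.1 CPM).

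Hormones that report on nutrients and their receptors made up 23 tested genes, of which 10 rose and 5 fell, with a median of 0.23 and 8 past neither way. AkhR, the receptor of adipokinetic hormone on fat cells, went from between 13.1 and 14.5 CPM to between 34.8 and 40.5 CPM (1.38 ± 0.09). The activin-like ligand daw rose by 1.13 ± 0.08, and CCHa2, a nutrient-dependent peptide of gut and fat body, by 0.69 ± 0.08. NPF, a peptide of gut and brain, rose by 0.47 ± 0.09. The insulin-like peptide gene Ilp2 overlapped between the diets at 7.79 to 9.81 CPM (0.10 ± 0.08, adjusted p = 0.294), whereas the insulin receptor InR rose from between 24.0 and 33.4 to between 45.7 and 55.0 CPM (0.89 ± 0.23, adjusted p = 0.00293).

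Genes of TOR, ATF4 and starvation signalling moved in both directions, at shares close to those of all genes. REPTOR, a transcription factor that TOR inhibits, went from 20.7, 19.2, 25.3 and 22.6 CPM to 46.0, 53.3, 50.7 and 55.5 CPM (1.21 ± 0.10, adjusted p = 3.20e-08), and its partner REPTOR-BP rose by 1.41 ± 0.18. Thor, the translation inhibitor 4E-BP, stood at 164, 35.9, 110 and 48.0 CPM on low sugar and at 229, 298, 300 and 378 CPM on high sugar (1.98 ± 0.38, adjusted p = 2.54e-04). Its low-sugar libraries spread widely but stayed below all high-sugar libraries. The TOR inhibitors scyl and Sesn rose by 0.98 ± 0.11 and 0.52 ± 0.06, while Tsc1, an inhibitor as well, fell by 0.43 ± 0.04. Tif-IA, which starts ribosomal RNA synthesis, fell by 0.79 ± 0.07 and Myc by 0.26 ± 0.07, although Myc libraries overlapped at 113 CPM. crc, the fly ATF4, differed by 0.04 ± 0.03 (adjusted p = 0.254) and passed as a fall of 0.15 with quantile normalization. Of 20 tested genes of TOR, ATF4 and starvation signalling 6 rose, 7 fell and 7 did not pass, with a median of 0.02.

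Steroid hormone genes moved in both directions. Blimp-1, an ecdysone-induced repressor that times later steps, went from 23.7, 19.1, 25.9 and 19.5 CPM to 3.48, 4.30, 2.07 and 2.32 CPM (-2.70 ± 0.22, adjusted p = 3.81e-08). ImpE3 fell by 1.74 ± 0.23, and the ecdysone-induced receptors Hr4 and Hr46 (Hr3) by 1.98 ± 0.36 and 1.47 ± 0.31. Cyp18a1, which inactivates ecdysone, rose by 1.83 ± 0.30 to between 14.5 and 21.1 CPM, and the receptor EcR by 0.58 ± 0.10. The lactate dehydrogenase ImpL3 fell by 0.68 ± 0.06. Of 23 tested genes of ecdysone synthesis and early response 5 rose, 9 fell and 9 did not pass, with a median of 0.05. Of 16 nuclear receptors 5 rose, 5 fell and 6 did not pass (5 and 3 without the library of highest Tweedle level in each group), with ERR and Hr96 higher by 0.48 ± 0.08 and 0.37 ± 0.06 among those that rose.

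Most genes of the growth machinery fell on high sugar, while few cytosolic ribosomal proteins did, a count that rested on the scaling. All 16 tested subunits of RNA polymerases I and III fell, with a median of -0.96. CG18600 (Polr1E), a subunit of RNA polymerase I, went from 64.1, 71.0, 63.1 and 66.8 CPM to 25.0, 26.7, 28.6 and 24.8 CPM (-1.32 ± 0.07, adjusted p = 7.83e-10), and CG13773 (Polr1F) fell by 1.18 ± 0.08. All 42 tested small nucleolar and nuclear RNAs fell, with a median of -0.89 and a range of -1.43 to -0.48. snoRNA:Or-CD2 went from 4.66, 5.37, 4.64 and 4.47 CPM to 1.74, 1.39, 1.12 and 1.64 CPM, and snoRNA:Psi28S-291 fell by 1.39 ± 0.10. Most of these RNAs guide the modification of ribosomal RNA, and most lie in introns of host genes, whose reads can be counted with them.

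All 20 tested cytosolic aminoacyl-tRNA synthetases fell, by 0.47 to 1.01 with a median of -0.75. ValRS went from 130, 143, 139 and 137 CPM to 68.9, 71.8, 70.5 and 59.8 CPM (-1.01 ± 0.06), and LysRS and alpha-PheRS fell by 0.97 ± 0.06 and 0.93 ± 0.05. Of 40 initiation and elongation factors 1 rose, 38 fell and 1 did not pass, with a median of -0.42. eIF6, which acts on the large ribosomal subunit, fell by 1.06 ± 0.07, eIF-3p66 (eIF3d1) by 0.80 ± 0.04 and the cap-binding eIF-4E (eIF4E1) by 0.63 ± 0.04. Of 72 mitochondrial ribosomal proteins none rose, 62 fell and 10 did not pass, with a median of -0.28 and mRpS10 lower by 0.65 ± 0.06. Of 86 cytosolic ribosomal proteins none rose, 14 fell and 72 did not pass, with a median of -0.04. With other fits of this list 67 fell with quantile normalization (median -0.17), 9 with median-ratio scaling and 30 with roX1 level as a covariate, where 2 rose. RpS2 fell by 0.38 ± 0.04.

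Genes of DNA replication and the cell cycle were lower as well. Of 32 tested genes 1 rose, 28 fell and 3 did not pass, with a median of -0.60. PCNA, the sliding clamp of DNA polymerase, went from 102, 111, 99.2 and 106 CPM to 50.3, 54.3, 50.8 and 45.8 CPM (-1.05 ± 0.08). The loading factor Cdc6 fell by 0.90 ± 0.07, the helicase subunit dpa (Mcm4) by 0.74 ± 0.07 and Cdk2 by 0.63 ± 0.06. Of 4 tested histone genes 2 rose and 2 fell, and the variant His2Av fell by 0.94 ± 0.06. In purine and pyrimidine synthesis 2 rose, 11 fell and 3 did not pass of 16, with a median of -0.55, in a list that also holds Uro, which breaks purines down. ras, IMP dehydrogenase of guanine nucleotide synthesis, went from 182, 218, 193 and 215 CPM to 86.1, 93.0, 96.2 and 81.6 CPM (-1.17 ± 0.07). Dhod, of pyrimidine synthesis, fell by 0.73 ± 0.04, and AdSS, of adenine nucleotide synthesis, rose by 0.58 ± 0.04.

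**Figure D4:**
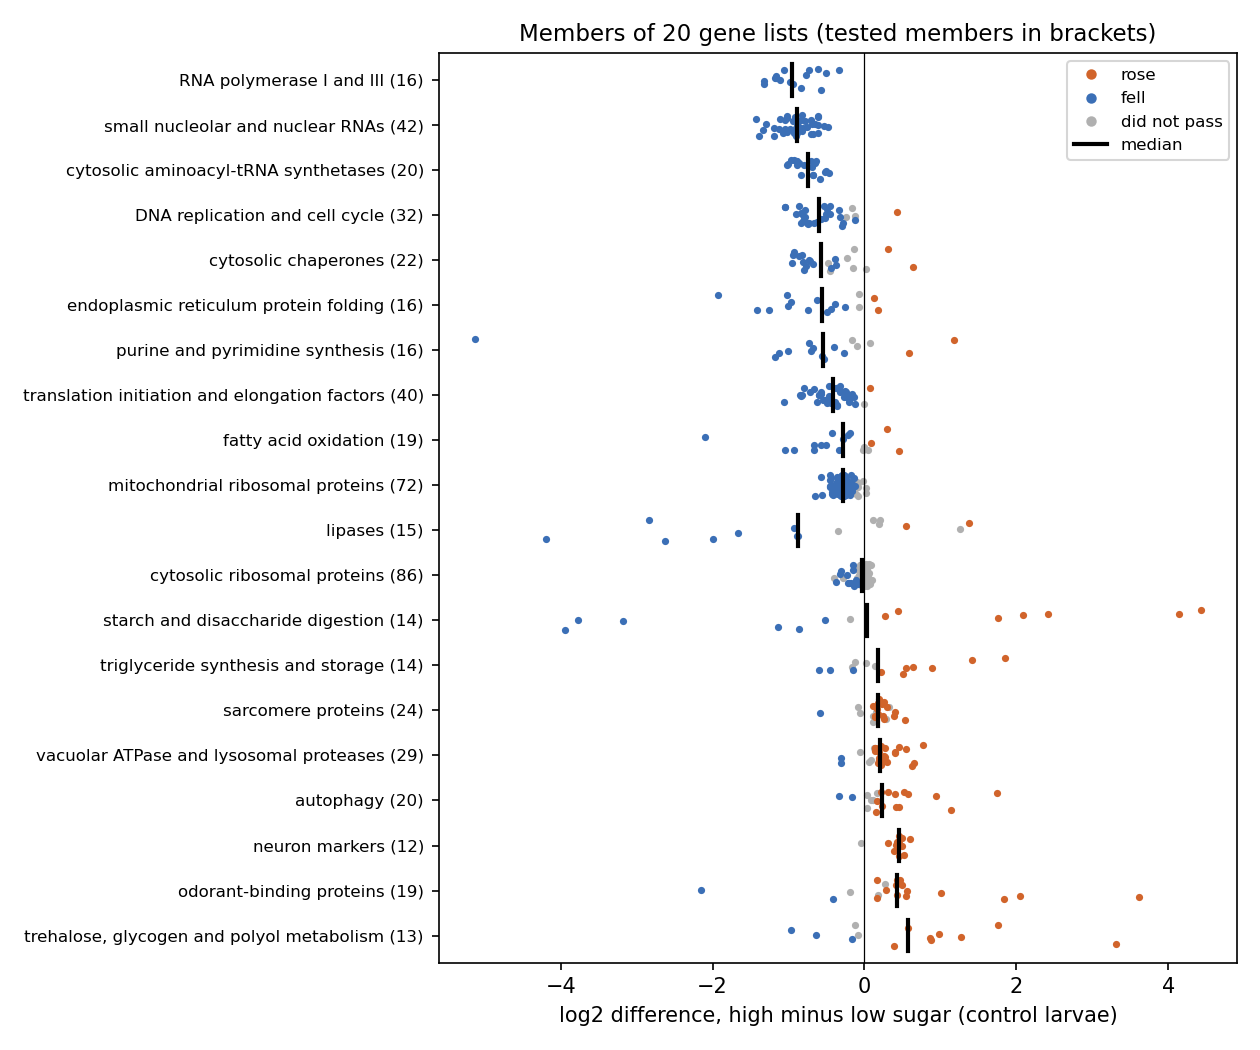
Log2 differences of high minus low sugar in control larvae for the tested members of 20 gene lists, 1 point per gene (orange rose, blue fell, grey did not pass) with the median as a black bar. RNA polymerase I and III subunits and small nucleolar and nuclear RNAs lie wholly below 0 (medians -0.96 and -0.89), and cytosolic ribosomal proteins cluster at 0 (median -0.04). Neuron markers and genes of trehalose, glycogen and polyol metabolism lie mostly above 0 (medians 0.45 and 0.58).

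Most protein folding genes fell, and most genes of the lysosome and of autophagy rose. Of 22 tested cytosolic chaperones 2 rose, 14 fell and 6 did not pass, with a median of -0.58. Hsp83, the fly Hsp90, went from 2132, 2634, 2358 and 2304 CPM to 1369, 1373, 1178 and 985 CPM (-0.95 ± 0.12). Its co-chaperone CG16817 (p23) and the chaperonin subunit Cct5 fell by 0.95 ± 0.06 and 0.93 ± 0.06. Of 16 folding genes of the endoplasmic reticulum 2 rose, 12 fell and 2 did not pass, with a median of -0.56. Hsc70-3, the fly BiP, went from 1418, 1204, 1305 and 1250 CPM to 488, 572, 486 and 406 CPM (-1.41 ± 0.10), and Gp93, the Hsp90 of that compartment, fell by 1.26 ± 0.09. Xbp1, the transcription factor that answers unfolded proteins, did not pass (-0.08 ± 0.05, adjusted p = 0.148) and passed as a fall of 0.21 with quantile normalization.

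Of 20 tested autophagy genes 13 rose, 2 fell and 5 did not pass, with a median of 0.23. Atg18b, a membrane-binding factor, went from 6.55, 4.94, 6.91 and 5.50 CPM to 19.6, 20.9, 21.5 and 22.2 CPM (1.75 ± 0.13), and Atg8a, which coats autophagosomes, rose by 0.95 ± 0.11. Of 29 genes of the vacuolar ATPase and lysosomal proteases 23 rose, 2 fell and 4 did not pass, with a median of 0.20. The cathepsins CG12163 (CtsF) and CtsB1 rose by 0.77 ± 0.09 and 0.66 ± 0.08.

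Transporters of amino acids moved in both directions, with 6 that rose, 5 that fell and 6 that did not pass of 17. Eaat1, a glutamate transporter of glia, went from 38.5, 39.6, 40.3 and 39.7 CPM to 103, 101, 105 and 107 CPM (1.39 ± 0.06), and Eaat2 rose by 1.08 ± 0.07. CG13384 rose by 0.69 ± 0.04. mnd, a leucine transporter, fell by 0.93 ± 0.07, from between 82.5 and 92.1 CPM to between 45.2 and 48.9 CPM.

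Of 18 tested genes of redox defence 12 rose, 3 fell and 3 did not pass, with a median of 0.24. Men, the malic enzyme that makes NADPH, went from 627, 629, 647 and 696 CPM to 2283, 2375, 2313 and 2553 CPM (1.87 ± 0.05, adjusted p = 4.27e-13). Irc, a catalase of the gut, and GstD1, a glutathione transferase, rose by 0.91 ± 0.11 and 0.60 ± 0.08, whereas Gclm, a subunit of the enzyme that starts glutathione synthesis, fell by 0.59 ± 0.08. Of 16 genes of metal binding and iron 8 rose, 5 fell and 3 did not pass, with a median of 0.19. The metallothioneins MtnC and MtnB rose by 2.35 ± 0.16 and 1.39 ± 0.14, and their activator MTF-1 by 0.72 ± 0.06. MtnB went from 29.0, 40.3, 28.0 and 33.4 CPM to 93.6, 84.0, 81.7 and 82.8 CPM. ZnT35C, a zinc transporter of the Malpighian tubule, fell by 1.66 ± 0.09, from between 59.3 and 71.8 to between 17.5 and 22.6 CPM.

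Immune genes moved in both directions. Of 13 tested antimicrobial peptides and regulators of the IMD pathway 3 rose, 4 fell and 6 did not pass, with a median of -0.04. The amidases PGRP-SC1b and PGRP-SC1a, which degrade bacterial cell wall, rose by 1.93 ± 0.21 and 1.84 ± 0.25 from at most 2.11 CPM, and are near-identical copies whose reads may be split. PGRP-SD and PGRP-SB1 fell by 1.48 ± 0.14 and 1.14 ± 0.15 from at most 5.99 CPM. Of 5 lysozymes of the gut none rose, 4 fell and 1 did not pass, and LysB went from 57.4, 59.6, 27.5 and 47.7 CPM to 17.0, 17.8, 15.2 and 24.6 CPM (-1.31 ± 0.20). Reads of these similar copies may be split too. In the gut lining, the mucins Muc18B and Muc11A rose by 1.24 ± 0.08 and 1.39 ± 0.11, and of 10 genes of mucins and the peritrophic matrix 5 rose, 2 fell and 3 did not pass.

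Of 19 tested odorant-binding proteins, small secreted carriers that are also made outside the chemosensory organs, 14 rose, 2 fell and 3 did not pass, with a median of 0.43. Obp56d went from 62.8, 21.5, 24.5 and 27.9 CPM to 341, 306, 380 and 555 CPM (3.61 ± 0.31), with the highest values of each diet in the libraries that were also highest in Tweedle level. It kept its call with that level as a covariate. Obp99d rose by 1.83 ± 0.09. Obp99a fell from 165, 153, 131 and 134 CPM to 32.4, 29.8, 34.5 and 32.7 CPM (-2.15 ± 0.11). Among 17 serpins, which inhibit proteases, 6 rose and 3 fell while 8 did not pass, and Spn100A and Spn85F fell by 2.55 ± 0.28 and 1.83 ± 0.15. Of 10 genes of sterol handling 4 rose, 2 fell and 4 did not pass (2 rose with roX1 level as a covariate), with Npc2h lower by 0.75 ± 0.07.

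Of 145 tested long noncoding RNAs 59 rose, 19 fell and 67 did not pass, with a median of 0.16. Apart from CR45190, those with the smallest adjusted p included CR42491 and CR31781, which fell by 1.54 ± 0.11 and 0.96 ± 0.07. Of 12 genes of the mitochondrial genome 3 rose, none fell and 9 did not pass (1 rose with quantile normalization), led by the small ribosomal RNA mt:srRNA at 0.75 ± 0.17.

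Markers of cell types were compared to see which tissues contribute, and in RNA of whole larvae fewer cells of a type and less RNA per cell cannot be told apart. All markers that were found were above 0 in all 8 libraries. Of 6 fat body markers 1 rose and 5 fell (3 fell with roX1 level as a covariate), and their summed level went from between 7606 and 9072 CPM to between 6259 and 7067 CPM. fon, a clotting protein of the fat body, fell by 0.95 ± 0.09. Of 9 midgut markers 7 rose, 1 fell and 1 did not pass, and their sum went from between 949 and 1055 CPM to between 1315 and 1621 CPM. The trypsin alphaTry rose by 2.14 ± 0.13, and the fall is that of Amy-p. The changes of digestive enzymes and of fat body genes thus occur beside a shift of these sums, whose part in them was not tested. The sums also hold some of the same genes, such as Amy-p and alphaTry for midgut and Mtp for fat body, so they are not independent of them.

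Among 12 neuron markers 11 rose and the other did not pass, with a median of 0.45. Their sum went from between 364 and 443 CPM to between 522 and 584 CPM. Gad1, which makes the transmitter GABA, and the vesicle protein nSyb rose by 0.60 ± 0.06 and 0.46 ± 0.05, while elav, present in all neurons, was the marker that did not pass (-0.05 ± 0.07, adjusted p = 0.559). Among 7 glia markers 5 rose and the other 2 did not pass, with a sum of 436 to 518 CPM on low and 655 to 744 CPM on high sugar. Among 8 muscle markers 5 rose and 3 did not pass, but with quantile normalization no muscle marker rose. Of 24 sarcomere proteins 15 rose, 1 fell and 8 did not pass (2 rose with quantile normalization), with tmod, which caps actin filaments, higher by 0.40 ± 0.06 and Mlp60A lower by 0.59 ± 0.06.

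Of 6 salivary gland markers 4 rose and 2 fell, with ng2 higher by 1.35 ± 0.14 and the secretory regulator CrebA lower by 0.73 ± 0.08, and their sum went from between 182 and 232 to between 294 and 394 CPM. The summed muscle markers went from between 44428 and 47384 CPM to between 50073 and 55244 CPM, and the sums for Malpighian tubule, hemocytes and trachea overlapped between the diets. In Malpighian tubule 2 rose, 3 fell and 3 did not pass of 8, with Alp4, an alkaline phosphatase, higher by 1.28 ± 0.06 and Uro and ZnT35C lower. In hemocytes 4 rose, 2 fell and 3 did not pass of 9, with the phagocytic receptor eater higher by 1.15 ± 0.14. In trachea 1 rose and 5 did not pass of 6. Of 15 Tweedle genes none rose, 2 fell and 13 did not pass. TwdlO went from between 603 and 615 to between 342 and 463 CPM (-0.61 ± 0.10), and TwdlX fell by 0.22 ± 0.08, not passed without low-sugar library 2 (-0.15) or high-sugar library 1 (-0.19).

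Genes with large changes in the same direction lay beside each other in places. Of the 502 genes with a position that rose at least 2-fold, 154 (30.7%) had a neighbour among tested genes that did so too, and of 426 that fell at least 2-fold 92 (21.6%) did. Over all tested genes 5.16% rose and 4.44% fell at least 2-fold. The share that would have such a neighbour if positions were random was not computed. Besides the X-linked run around CG14422, runs of at least 4 such genes were found at 6 places. On 2L, 3039976 to 3068177, CG17221, CG17261 and the fatty acid synthases FASN2 and FASN1 rose by 1.37 to 2.82. The alpha-mannosidases LManIII, LManIV, LManV and LManVI fell by 1.32 to 2.32 at 8765273 to 8781252 on the same arm. On 3L, the 5 genes from CG13051 to CG13067 rose by 1.06 to 1.96 and those from CG13311 to CG13312 by 1.92 to 2.54. On 2R, the 4 genes from CG10476 to CG18607 fell by 1.12 to 3.05, and on X, ng2, ng3, ng1 and Pig1 rose by 1.22 to 1.46. Genes of such runs can be copies that share reads. By arm, 2L, 2R, 3L, 3R and X had 4.82% to 5.61% of tested genes that rose at least 2-fold and 3.57% to 4.87% that fell as much. Of 82 tested genes on 4, 2 rose and none fell.

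The same contrast in larvae of cwoB9, whose libraries are separate from the control libraries, was set beside the control response. There 5121 of the 9837 genes passed (52.1%), and the interaction of genotype and diet, which tests the difference between the responses, passed for 1659 (16.9%), or for 790 without the library of highest Tweedle level in each group. Of the genes called in both genotypes 4517 had the same direction and 53 the opposite. Since the genes below were chosen by the size of their change in control larvae, a smaller change in the other genotype is partly built into the choice.

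The interaction was tested for 30 genes, the 12 largest rises, the 12 largest falls and 6 regulators, and passed for 19. On the log2(CPM + 0.5) scale all 19 changed less in cwoB9, and the levels behind some of these differences are given beside them. In CPM, CG14420 went from means of 52.2 to 1.19 in control and from 4.48 to 0.0509 in cwoB9 larvae. Its interaction (2.59) came to 1.81 with a pseudocount of 0.1 CPM and to 0.64 with voom weights. It passed with neither (limma, adjusted p = 0.311 and 0.841). CR45190 rose by 3.24 ± 0.16 there against 5.71 ± 0.16 in control larvae (difference -2.48 ± 0.22, adjusted p = 7.30e-06), and CG1774 by 3.14 ± 0.09 against 4.81 ± 0.09. CG1774 stood at 85.4 to 113 CPM in cwoB9 on low sugar, above the 30.1 to 38.7 CPM of control larvae, and at 811 to 934 CPM on high sugar. CG14422 differed by -1.41 ± 0.49 between the diets there against -8.73 ± 0.49 (difference 7.32 ± 0.69, adjusted p = 1.08e-05). On low sugar it stood at only 4.95, 0.357, 1.47 and 0.613 CPM in cwoB9 libraries 1 to 4, so a fall as large as that of control larvae could not be measured there. In all 8 genes of the 19 that fell, every cwoB9 library on low sugar lay below every control library on low sugar. Mal-A7 differed on the other diet, with 7.25 to 9.26 CPM in cwoB9 on high sugar against 29.2 to 45.7 CPM in control larvae, and its low-sugar levels overlapped. In mean CPM, CG17738 went from 8.04 to 204 in control and from 62.5 to 356 in cwoB9 larvae. In the same order, CG12766 went from 3.05 to 60.6 and from 17.7 to 106. CAH2 went from 69.3 to 1220 and from 208 to 1294, and CG9759 from 3.07 to 75.3 and from 15.3 to 74.8. For CR45190, CG1774, Mal-A7, CG32444, CG5246, Mal-A8 and CG14205 the high-sugar mean was lower in cwoB9 than in control larvae. sug, cbt and Mondo rose by 2.62 ± 0.19, 1.20 ± 0.06 and 0.97 ± 0.07 in cwoB9, and their interactions did not pass (adjusted p = 0.0947, 0.168 and 0.167). Leaving out library 1 of control larvae on low sugar made that of sug pass (-0.82, adjusted p = 0.0451), as did leaving out low-sugar library 1 of cwoB9 (-0.81, adjusted p = 0.0391). Uro fell by 6.23 ± 0.32 in cwoB9 (adjusted p = 0.113 for the interaction), and this interaction passed with roX1 level as a covariate (-1.50, adjusted p = 0.00291) and without control high-sugar library 4 (-1.36) or low-sugar library 1 of cwoB9 (-1.31).

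The lists, which were chosen with earlier results of these data known, are given with the medians of both genotypes as a description. Over all tested genes the interaction passed for 16.9%, and for fewer (790 against 1659) without the library of highest Tweedle level in each group. The interaction counts of the lists were not refitted under the alternatives. RNA polymerase I and III subunits all fell in both genotypes, with a median of -0.96 in control and -0.56 in cwoB9 larvae and an interaction that passed for 10 of 16. The aminoacyl-tRNA synthetases all fell in both as well, with medians of -0.75 and -0.50 and 14 of 20 interactions. Of the starch and disaccharide digestion genes 11 of 14 had an interaction that passed. Of the 13 genes that store or convert sugars 2 did, with medians of 0.58 in control and 0.57 in cwoB9 larvae, and of 29 genes of the vacuolar ATPase and lysosomal proteases 3 did, with medians of 0.20 and 0.17.

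**Figure D5:**
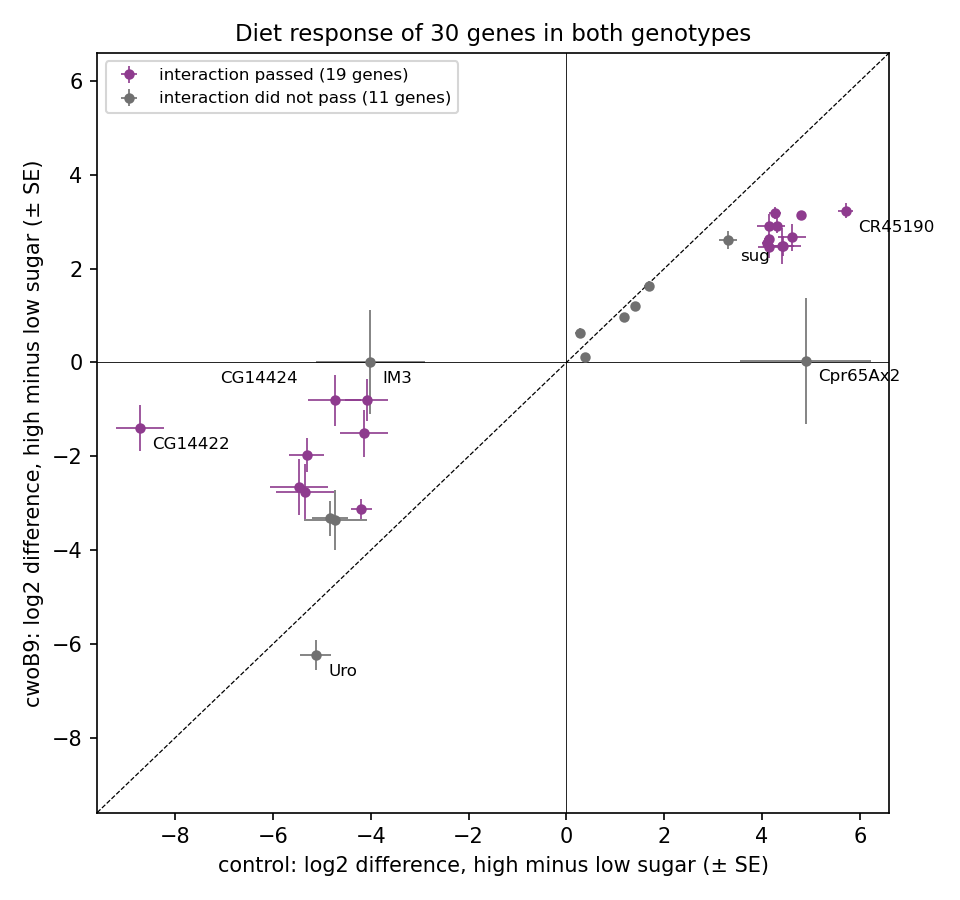
Log2 difference of high minus low sugar ± SE in control larvae (horizontal) and in cwoB9 larvae (vertical) for 30 genes, with the line of equal response dashed. The 19 genes in purple, whose interaction passed, have differences nearer to 0 in cwoB9 than in control larvae, CG14422 farthest from the line, while sug lies close to it and Uro below it.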

How the data were processed

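Stranded libraries of whole larvae, freed of ribosomal RNA, were sequenced from 1 end (75 bp, 2 technical runs, mean depth 30 M reads, M for mega), per the labels' protocols. Trimmomatic, TopHat2 (2.1.0), HTSeq (2.7.6) and limma are named in the submitters' processing notes, with no role or order. The build, annotation and strand setting behind the counting are not known from the labels.

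The deposited values are called CPM, but 9 of 16 columns sum to over 1 M, so their unit was taken as a signal whose scaling is unknown. Control columns summed to 0.961 to 0.971 M on low and 1.02 to 1.04 M on high sugar. The design assumed CPM, and the same test serves. Within a library all values were whole multiples of 1 step, to 1e-06 reads, and the inverse of the step gave the depth. Low values were too few for tests made for counts. The authors' deposited log2 coefficients, t and F scores and p-values were not used.

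From 9863 listed genes, 9837 that reached 1 CPM in 4 or more of 16 libraries were kept, and log2(CPM + 0.5) was fitted with limma 3.58.1 (R 4.3.3) over all 16 libraries, 1 mean per group, eBayes with trend (12 residual and 2.97 prior degrees of freedom), two-sided, Benjamini-Hochberg, 0.05. Differences of low genes are understated on this scale. The fit was also run on simulated data with independent noise and few changed genes. That setting differs from these data, where most genes passed, so it does not test the calls made here. Tables and figures were made with Python 3.11.15, numpy 2.4.6, pandas 2.3.3 and matplotlib 3.10.9. Positions are from Ensembl 115 on BDGP6, in which 9702 of 9837 IDs were found.

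Members and the 51 lists were chosen with earlier results of these data known. Lists were described without a test. Genes named by rule were sug, cbt, Mondo, Mlx, cwo and tim, the 12 largest rises and falls (passed, at least 5 CPM in the higher group, no overlap) and up to 4 members per list with the smallest adjusted p. SREBP, Hnf4, foxo, Mal-A1, Mal-B1, Mal-A4, tobi, Glut1, GlyS, Tps1, Treh, Sodh-1, bmm, Rfabg, whd, Ilp2, InR, REPTOR-BP, Thor, scyl, Myc, crc, Cyp18a1, Hr46, Hsp83, Xbp1, elav, Cpr65Ax1, CG1635 and kirre were added after their values were seen. The alternatives were other pseudocounts, filters, scalings and variance models, a replicate block, covariates for Tweedle and roX1 level and leaving out libraries. Voom weights on recovered reads, and a fit that drops from each group its library of highest Tweedle level, were chosen after seeing the data. Promoter sequences were not analysed here.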

Additional observations from a re-analysis of the deposited data

Results flagged for a closer look

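A gap test within each control diet group (Dixon, 4 libraries) set 18 of 358 groups of values apart, and chance sets apart about 1 in 20. On low sugar, library 1 stood apart in the mean log2 Tweedle level (5.26) and in Obp56d (62.8 CPM against at most 27.9). Library 2 stood apart in Cpr65Ax2 (0.216 CPM), CG12766 (2.46), sut1 (156) and ZnT35C (71.8), library 3 in Uro (91.6) and Baldspot (228), and library 4 in Dhod (53.2) and roX2 (3.07). On high sugar, library 1 stood apart in Mlp60A (737 CPM), library 2 in GlyP (2578), library 3 in Gad1 (40.6) and Cpr65Ax1 (37.5), and library 4 in CR45190 (50.7), CG8093 (0.383), CG12262 (34.5) and bond (69.9). In all of these except Cpr65Ax1, roX2 and the Tweedle level, the diets did not overlap.

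The response of cwoB9 minus that of control larvae passed the interaction test of limma for 19 of the 30 genes, and for 16.9% of all tested genes. The 12 largest rises and 12 largest falls among the 30 were chosen by their change in control larvae. A smaller change in cwoB9 is therefore partly built into the choice. Among genes that rose, the difference was -2.48 for CR45190, -1.95 for CG17738, -1.94 for Mal-A7, -1.93 for CG9759, -1.68 for Mal-A8, -1.67 for CG1774, -1.56 for CG12766, -1.50 for CAH2, -1.39 for CG32444, -1.23 for CG14205 and -1.09 for CG5246. Among genes that fell it was 7.32 for CG14422, 3.94 for CG14424, 3.35 for CG32793, 3.29 for CG13983, 2.82 for CG3598, 2.63 for CG3546, 2.59 for CG14420 and 1.07 for CG8093. In all 8 of these the cwoB9 libraries on low sugar lay below the control libraries on low sugar. The interactions of CG9759, CG14205, CG3598, CG14420, CG14424, CG8093 and CG3546 lost their call under at least 1 alternative. Those of CG14420 and CG3598 lost it under many, including many single libraries left out. With a pseudocount of 0.1 CPM they came to 1.81 and 2.24 (limma, adjusted p = 0.311 and 0.193), and with voom weights to 0.64 and 1.82. The interactions of sug, Mondo, cwo, bigmax, Cpr65Ax2, Uro, CG13135 and IM3, which had not passed, did so under at least 1 alternative.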

How the results depend on the processing

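Over alternatives other than single libraries left out, 5968 to 6847 genes were called in control larvae, 446 to 563 rose and 391 to 499 fell at least 2-fold. Leaving out 1 library gave 6302 to 6893 genes called, 463 to 538 that rose and 411 to 444 that fell at least 2-fold, 1196 to 2451 interactions, and 24 to 25 of the 30 genes called in cwoB9. Interactions numbered 790 without the library of highest Tweedle level in each group, a fit of fewer samples.

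Of 177 genes refitted under each alternative, Hnf4, Rfabg, roX2 and TwdlX lost their control call under some alternative. With roX1 level as a covariate Hnf4, Rfabg and TwdlX did not pass (-0.16, -0.21 and -0.21, limma, adjusted p = 0.0674, 0.0815 and 0.0512). Values near 0 changed sign, and the cause was not tested. Glut1 came to 0.0034 with quantile normalization and lay between -0.073 and 0.0066 with 1 library left out. Ilp2 came to -0.0047 with roX1 level as a covariate and crc to -0.15 with quantile normalization (adjusted p = 3.82e-04, limma). The interaction of tim came to 0.15 with a pseudocount of 1 CPM, 0.047 with quantile normalization and -0.15 to 0.011 with 1 library left out.

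The labels do not say whether replicate numbers pair the samples. Deviations of same-numbered control libraries correlated at -0.13, 0.25, 0.13 and -0.19, and 1 of 8 libraries correlated best with its own number. These showed no clear pairing, but so few libraries cannot exclude it. With a replicate block 6830 genes were called, 511 rose and 437 fell at least 2-fold, 1949 interactions passed and 25 of the 30 genes were called in cwoB9. The planned promoter motif comparison was not run.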
